A study of Sus scrofa with 12 samples.

Results

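The data described here are the resting transcriptome of paVICs, the interstitial cells of the pig aortic valve, after 24 h in vehicle alone. They are 3 of the 12 sequencing libraries of the series, chosen by their treatment label, and no treated library enters any value below except where stated. The cells were wild type, and the vehicle was 0.6% DMSO and 0.1% ethanol in medium with 1% serum, the solvents that all 4 groups of the series received. No LPC and no dantrolene, the agents of the treated groups, was added. Each of the 3 replicates came from a separate isolation, made from the pooled valves of several hearts, and was cultured on its own day. Before culture the valves were wiped to remove the endothelium, and the cells were expanded in 10% serum on plastic. A replicate is therefore a pool of animals, and an isolation and its day of culture cannot be told apart.

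Valve interstitial cells are the fibroblast-like cells that populate the leaflets and build their layers of collagen, proteoglycan, and elastin. In a healthy leaflet most of them are quiescent, and on stiff surfaces or with growth factors they can become myofibroblasts, which assemble smooth muscle actin into stress fibers and lay down matrix. In calcified valves some cells express genes of cartilage and bone. The values below show which of these gene programs were present in the untreated cultures, at what share of the counts, and how far the 3 libraries differed.

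The vehicle libraries held 22859544, 19029059, and 19585430 counts in replicates 1, 2, and 3. Counts of each gene were divided by the total of its library, and are given as CPM, the count a gene would have in a library of 1000000 counts, in the order of replicates 1, 2, and 3. A count of 3 is worth between 0.131 and 0.158 CPM in a single library and 0.0488 CPM of the 3 libraries together, which are floors for counting error only. The counts had been adjusted by the authors for the isolation, so they are not the reads as sequenced, and the spread between replicates is what that adjustment left. CPM is a share of counts and grows with the length of a transcript. Transcript lengths were not used here, so levels of different genes are not ranked, and "share" below always means share of counts.

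Of 31908 genes in the table, 10995 (34.5%) reached 1 CPM in all 3 vehicle libraries, and 10026 of these had a symbol. At higher thresholds, 6945 genes reached 10 CPM, 1283 reached 100 CPM, and 89 reached 1000 CPM in every vehicle library. The number of genes at 1 CPM or more was 11651, 11550, and 11453 in the single libraries, and the number with at least 1 count was 14738, 14624, and 16129. A further 2082 genes had counts in exactly 1 vehicle library and 1456 in exactly 2. There were 0 counts in all 3 libraries for 14871 genes (46.6%), and 12301 of those had 0 counts in all 12 libraries of the series.

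The counts were concentrated in few genes. The 10 genes with the highest mean CPM held 14.7%, 14.9%, and 15% of the counts (mean 14.9 ± 0.126%, SD, n = 3), and the top 100 held 37.4 ± 0.994%. In replicates 1, 2, and 3, 50% of the counts fell on 266, 287, and 241 genes. The 127 genes with a mean of 1000 CPM or more held 40.3 ± 1.02% of the counts, and the 1441 genes between 100 and 1000 CPM held 35.9 ± 0.639%. The 20324 genes with a mean under 1 CPM held 0.129 ± 0.0126%. The curves of cumulative share lay close together, with replicate 3 the steepest.

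**Figure D1:**
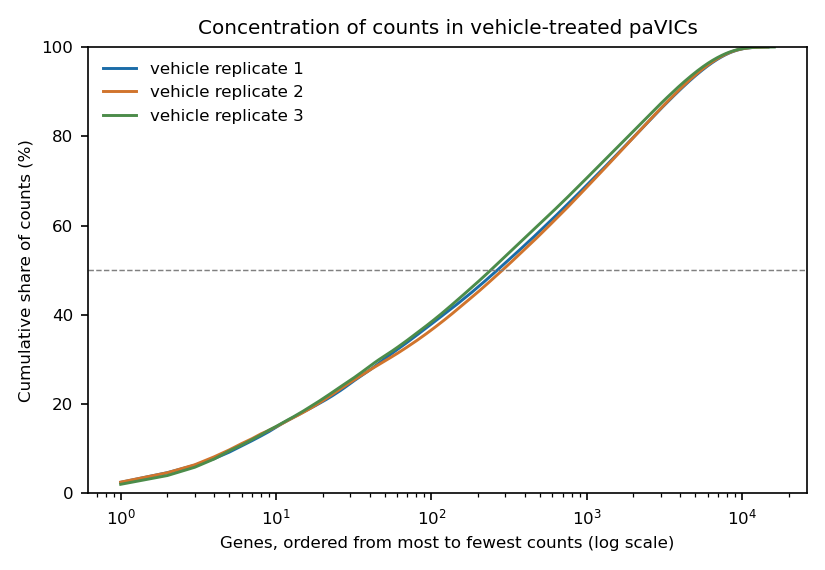
Cumulative share of counts (y axis, percent) against the number of genes ordered from most to fewest counts (x axis, log scale) for each vehicle library, with a dashed line at 50%. The 3 curves cross 50% between 241 and 287 genes.

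Matrix and cytoskeletal genes made up most of the named genes with the highest mean CPM. COL1A1 (ENSSSCG00000036135; chromosome 12, 26379087 to 26397180 in Sscrofa11.1), which encodes the α1 chain of type I collagen, was at 21707, 21072, and 18550 CPM. COL1A2 (ENSSSCG00000015326; chromosome 9, 74174484 to 74210407), which encodes the partner chain, was at 14662, 25217, and 19686 CPM. The chains thus differed in how even they were over the libraries, since COL1A1 varied 1.17-fold between its highest and lowest library and COL1A2 1.72-fold. FN1, fibronectin, had 24743, 17782, and 18128 CPM. FLNA, filamin A, which crosslinks actin filaments, had 16630, 17860, and 18546 CPM. ACTA2 (ENSSSCG00000010447; chromosome 14, 100868145 to 100886732), the smooth muscle actin used to mark myofibroblasts, had 14598, 15493, and 20325 CPM. All 3 isolations carried it at over 1% of the counts, with replicate 3 the highest.

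The other named genes among the 20 with the highest mean CPM belonged to the same classes. COL3A1, type III collagen, was at 11451 ± 1249 CPM (SD, n = 3, here and below). The matricellular proteins THBS1 and SPARC, which bind matrix and modulate cell attachment, were at 11262 ± 2556 and 10602 ± 2337 CPM. ACTG1 and ACTB, the nonmuscle actins, were at 10424 ± 667 and 5110 ± 1006 CPM. VIM, the intermediate filament of mesenchymal cells, was at 8430 ± 1120 CPM, and COL5A1, a chain of type V collagen, at 6976 ± 851 CPM. The small leucine-rich proteoglycans FMOD and BGN, which bind collagen fibrils, had 6180 ± 464 and 6034 ± 1112 CPM. The smooth muscle genes TAGLN and TPM1, an actin-binding protein and a tropomyosin, had 5803 ± 1336 and 5009 ± 531 CPM. Only 1 of the 20 was encoded by the mitochondrial genome, COX1, a subunit of cytochrome c oxidase, with 13911, 7268, and 8259 CPM. A further 3 of the 20 have no symbol in the table (ENSSSCG00000043761, ENSSSCG00000050765, and ENSSSCG00000004489), at 5300 ± 1206, 4820 ± 1085, and 4811 ± 371 CPM, and what they encode is not given in the sources used here.

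Among all 127 genes with a mean of 1000 CPM or more, 33 were on the matrix lists, 20 on the contractile and cytoskeletal lists, 10 encoded cytosolic ribosomal proteins, 3 were mitochondrial, and 13 had no symbol. Of the 41 that belonged to none of the lists or classes used, a few were picked out after their values were seen. TUBA1B, an α-tubulin, had 4336, 4668, and 5180 CPM, and EEF2, a translation elongation factor, had 4214, 4256, and 4512 CPM. FSTL1, a secreted follistatin-like glycoprotein, had 4133, 2610, and 3304 CPM. CLU, the secreted chaperone clusterin, had 3110, 1864, and 3103 CPM. HTRA1, a secreted serine protease, had 2169, 1566, and 2100 CPM, and AEBP1, a collagen-binding protein, had 2660, 1361, and 1609 CPM. The 4 secreted proteins named here were lowest in replicate 2, as were 2145 of the 7652 genes with a mean of 10 CPM or more. Not all secreted proteins were, since COL1A2, THBS1, and COL5A1 were highest in that replicate. The tubulin and the elongation factor varied less than 1.2-fold. The 13 protein genes of the mitochondrial genome held 2.12%, 1.25%, and 1.24% of the counts, and 54 named cytosolic ribosomal protein genes held 3.06%, 3.52%, and 3.95%. The 18S ribosomal RNA gene RN18S, which a poly(A) selection should leave out, was at 2512, 3737, and 3926 CPM. The mitochondrial share was thus highest in replicate 1 and the ribosomal shares highest in replicate 3, and the part of RNA quality in these differences was not tested.

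The label of the cells was checked against marker genes of 12 cell types. Valve interstitial or fibroblast markers were the only list of which every measured member (13 of 13, with TWIST1 not found by symbol) reached 1 CPM in all 3 libraries. They summed to 44363, 41043, and 41599 CPM. Beyond the collagens and VIM, this list held PDGFRB at 676, 472, and 505 CPM, THY1 at 594, 393, and 660 CPM, CDH11 at 268, 207, and 202 CPM, and PRRX1 at 227, 214, and 144 CPM. These encode a platelet-derived growth factor receptor, a surface glycoprotein of fibroblasts, a mesenchymal cadherin, and a homeobox factor of mesenchyme. Markers of the labelled cell type were thus present in all 3 isolations.

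**Figure D2:**
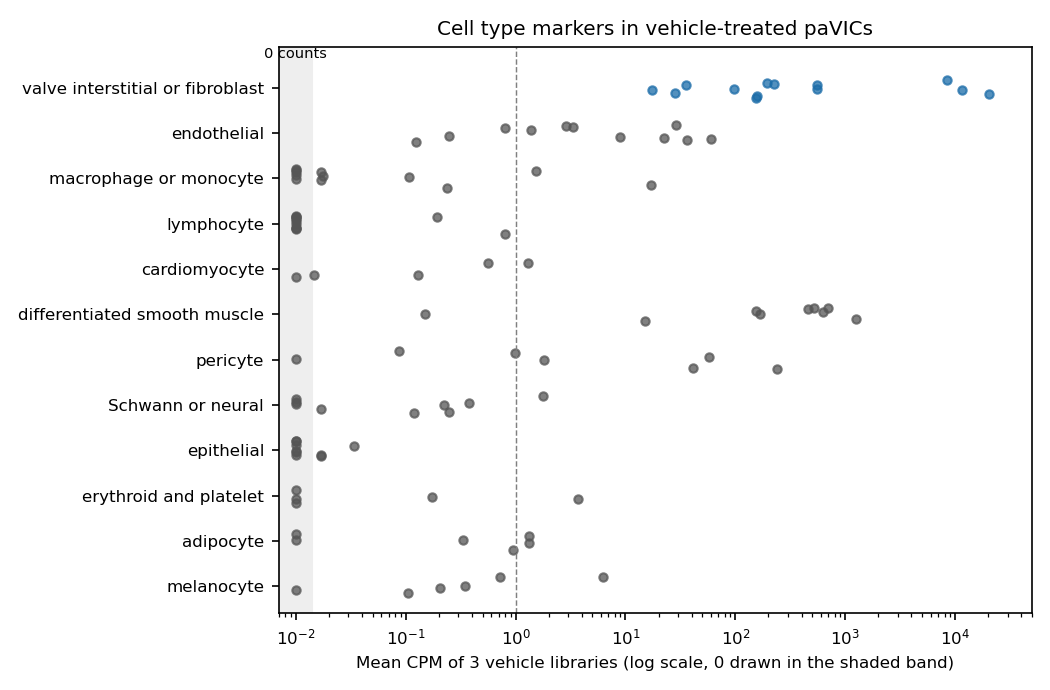
Mean CPM over the 3 vehicle libraries (x axis, log scale, with genes at 0 counts drawn in the shaded band) of the measured markers of 12 cell types, 1 point per gene, with a dashed line at 1 CPM. All 13 valve interstitial or fibroblast markers lie right of the line, and no lymphocyte or epithelial marker does. Genes whose symbol differed between the sources are left out.

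Markers of blood and epithelial cells were at or near 0. Of the 11 lymphocyte markers in the table, 9 had 0 counts in all 3 libraries, among them CD3E, CD4, and CD8A, and the list summed to 1.27, 0.946, and 0.766 CPM. Of 9 epithelial markers, 6 had 0 counts, among them EPCAM and CDH1, and the others had at most 2 counts in a library. Macrophage markers summed to 20.8, 14.9, and 21.2 CPM, nearly all of it from CD14, a lipopolysaccharide coreceptor, at 18.4, 13.2, and 19.4 CPM. PTPRC, the pan-leukocyte marker CD45, and CD163, C1QA, C1QB, and LYZ were at 0. A count of 0 allows up to 0.0488 CPM over the 3 libraries together, a limit that covers counting error only and not reads lost in mapping or counted under another identifier. In RNA pooled from many cells fewer cells of a type and less RNA per cell cannot be told apart. The 6 cardiomyocyte markers in the table summed to 2.06, 1.31, and 2.71 CPM with TNNT2 at 0, and MYH6, MYL7, NPPA, and TTN were not found by symbol. The 9 Schwann or neural markers summed to 2.67, 2.47, and 3.11 CPM. Adipocyte markers summed to 4.46, 4.31, and 2.96 CPM, with ADIPOQ and FABP4 at 0. Melanocyte markers summed to 11.3, 6.10, and 5.31 CPM, most of it from MITF at 9.67, 4.47, and 4.44 CPM. Among erythroid and platelet genes ALAS2, SLC4A1, and AHSP were at 0, and the list's 69.4, 80.9, and 58.4 CPM under the symbol ITGA2B cannot be assigned, since the table of gene names gives that identifier as GPATCH8.

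Some endothelial genes were detected. The 12 markers summed to 188, 158, and 156 CPM, and 8 of them reached 1 CPM in every library. ERG, an ETS factor of endothelium and of some mesenchymal cells, was at 80.0, 46.4, and 53.9 CPM. The junctional proteins PECAM1 and CDH5 were at 40.5, 33.2, and 34.7 CPM and at 26.5, 33.9, and 25.2 CPM. EGFL7, a secreted vascular protein, was at 19.4, 27.6, and 20.9 CPM. The receptors KDR and TEK, which also define endothelium, had 0.219, 0, and 0.153 CPM and 0.437, 0, and 0.306 CPM. The endothelial list was thus split, with ERG, PECAM1, CDH5, and EGFL7 at 19.4 CPM or more and KDR and TEK under 1 CPM in the same isolations. The list's sum and the count of 8 include an identifier with the symbol VWF (von Willebrand factor) at 2.14, 1.05, and 3.42 CPM, which the table of gene names gives as ANO2, so it cannot be assigned to either gene.

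Genes shared with smooth muscle were detected. The 9 markers of differentiated smooth muscle summed to 2515, 4467, and 4691 CPM, and 8 of them reached 1 CPM in all libraries. The exception was KCNMB1, a subunit of a calcium-activated potassium channel of smooth muscle, at 0.350, 0.0526, and 0.0511 CPM. MYOCD, the coactivator that drives the smooth muscle program, was at 8.05, 22, and 15.2 CPM. The 7 pericyte markers summed to 386, 323, and 316 CPM, and 4 of them reached 1 CPM in all libraries. CSPG4 (the proteoglycan NG2) was at 264, 223, and 234 CPM, while RGS5 had 2.84, 0, and 0.102 CPM and HIGD1B had 0 counts. Smooth muscle genes are also used by myofibroblasts, and these 3 libraries cannot separate the cell types.

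The 88 matrix genes on the lists held 18.5%, 17.7%, and 17.7% of all counts (18.0 ± 0.468%). All 41 collagen chain genes of the table, a family set after the values were seen, summed to 79543, 87798, and 80188 CPM, and 26 of the chains reached 1 CPM in every library. The 11 fibrillar and fibril-associated chains on the list summed to 59552, 71882, and 63917 CPM. COL5A2, which pairs with COL5A1 in the heterotypic fibrils of type I collagen, had 3597, 5023, and 4185 CPM. COL12A1, which sits on the fibril surface, had 1771, 1001, and 1143 CPM. COL2A1, the collagen of cartilage, was the only one of the 11 that did not reach 1 CPM, at 0.700, 0.210, and 0.817 CPM. Genes of collagen types I, III, and V were thus carried by all isolations, and the gene of the cartilage type stayed under 1 CPM.

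Type VI collagen, which forms beaded filaments around cells, was carried by COL6A1 (5575, 4396, and 4345 CPM), COL6A2 (4700, 2876, and 3205 CPM), and COL6A3 (2642, 1298, and 1284 CPM). All 3 chains were highest in replicate 1. So were 4 of the 9 genes of their list with a mean of 10 CPM or more, and 3410 of all 7652 genes with that mean. COL4A2 and COL4A1, the ubiquitous chains of basement membrane collagen, had 2300, 2418, and 2380 CPM and 1842, 1542, and 1579 CPM. COL4A3, whose chain belongs to kidney and lung basement membranes, was at 0.219, 0, and 0 CPM. Laminins are the other main component of basement membranes. LAMC1 had 1737, 958, and 1035 CPM, LAMB1 had 1125, 601, and 603 CPM, and LAMA4 had 684, 438, and 413 CPM. LAMA5, chosen after its values were seen, had 1646, 1054, and 843 CPM. These 4 laminin chains were also highest in replicate 1. In the laminin family, set after the values were seen, all 5 chains with a mean of 10 CPM or more were highest there, against the same 3410 of 7652 genes.

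**Figure D3:**
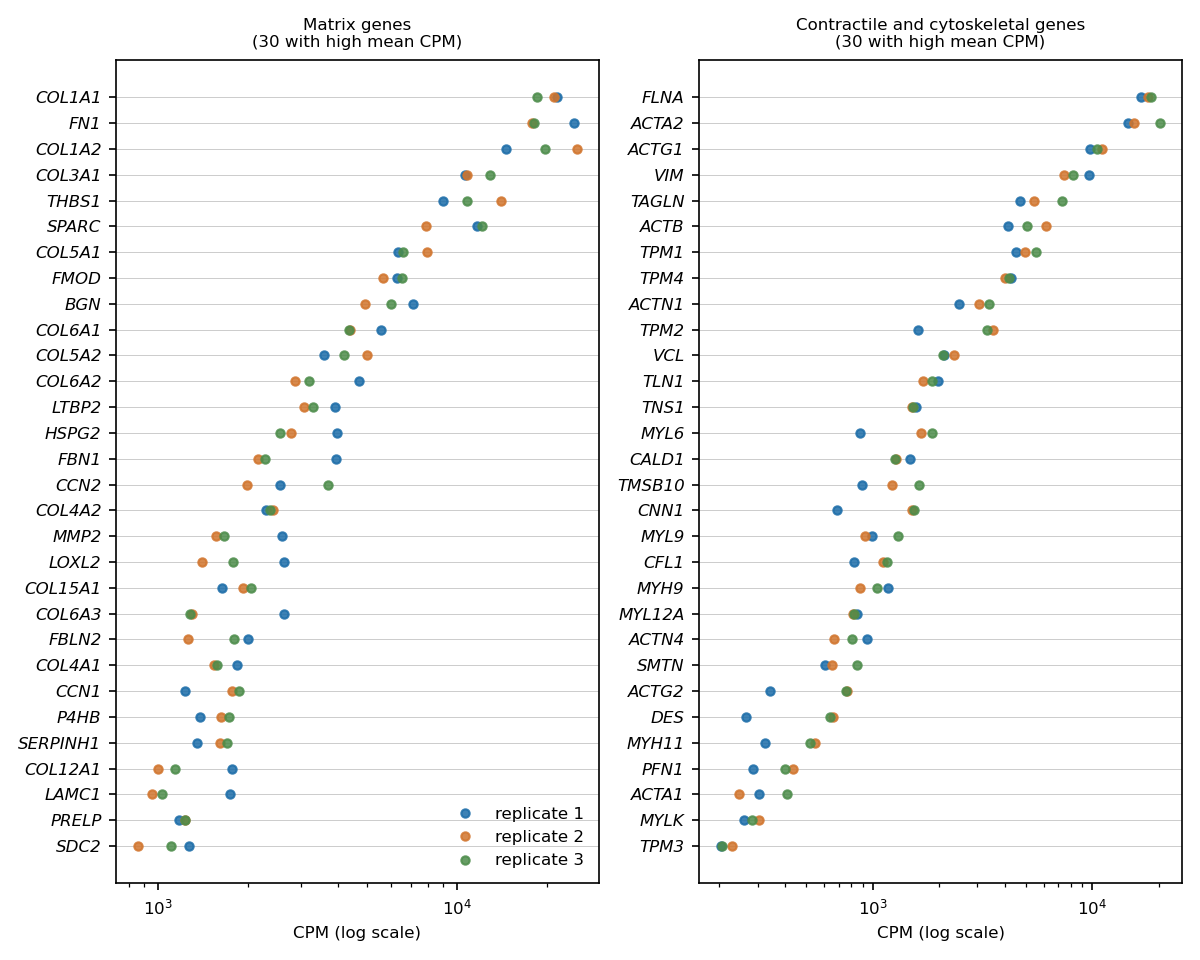
CPM (x axis, log scale) of matrix genes (left) and contractile and cytoskeletal genes (right) with high mean values, 30 in each panel, 1 point per vehicle library. COL1A2 spans 14662 to 25217 CPM. CNN1, DES, ACTG2, and TPM2 lie lowest in replicate 1, and the type VI collagen chains lie highest there.

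Of 15 proteoglycan and hyaluronan synthase genes in the table, 13 reached 1 CPM in all libraries. HSPG2, the basement membrane proteoglycan perlecan, had 3981, 2784, and 2567 CPM, and PRELP, a leucine-rich proteoglycan, had 1176, 1231, and 1232 CPM. FMOD was at 6325, 5660, and 6554 CPM and BGN at 7150, 4926, and 6025 CPM. DCN and LUM, the leucine-rich proteoglycans decorin and lumican, were at 180, 122, and 159 CPM and at 128, 63.8, and 101 CPM. VCAN, versican, the large hyaluronan-binding proteoglycan of the valve spongiosa, had 122, 84.1, and 61.5 CPM, and ACAN, the aggrecan of cartilage, had 3.15, 1.79, and 3.47 CPM. The hyaluronan synthases HAS3 and HAS1 were at 2.62, 1.73, and 1.12 CPM and at 0, 0.210, and 0.102 CPM, and HAS2 was not found by symbol. Of the 11 members with a mean of 10 CPM or more, 9 were highest in replicate 1 and 8 lowest in replicate 2. All the genes of the table with that mean numbered 7652, of which 3410 were highest in replicate 1 and 2145 lowest in replicate 2.

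All 14 elastic fiber genes reached 1 CPM, and they summed to 14258, 10022, and 11792 CPM. LTBP2 and FBN1, which belong to the microfibrils on which elastin is laid, had 3909, 3084, and 3313 CPM and 3928, 2154, and 2278 CPM. ELN, elastin itself, had 892, 483, and 878 CPM. FBLN2, a fibulin, had 2007, 1261, and 1790 CPM, and MFAP4 had 1087, 756, and 1238 CPM. EFEMP1, a fibulin as well, was 1 of the 10 named genes with the smallest spread in the whole table, at 26.2, 26.0, and 26.0 CPM. Elastic fiber genes with a mean of 10 CPM or more numbered 12, of which 9 were highest in replicate 1. Lowest in replicate 2 were 8 of the 12. Over all 7652 genes with that mean, 3410 were highest in replicate 1 and 2145 lowest in replicate 2.

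All 11 collagen-processing enzymes passed 100 CPM in every library. LOXL2, a lysyl oxidase that crosslinks collagen and elastin, had 2632, 1399, and 1789 CPM, and LOX had 480, 290, and 292 CPM. P4HB, a subunit of the collagen prolyl 4-hydroxylase, and SERPINH1, the collagen chaperone HSP47, had 1386, 1628, and 1732 CPM and 1356, 1614, and 1705 CPM. The crosslinking enzymes were highest in replicate 1, and P4HB and SERPINH1 were lowest there.

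Of 11 matrix proteases and inhibitors in the table, 7 reached 1 CPM in all libraries. TIMP1, an inhibitor of metalloproteinases, had 563, 1228, and 1109 CPM. MMP2, the gelatinase of fibroblasts, had 2594, 1564, and 1670 CPM, and MMP14, its membrane-bound activator, had 1301, 725, and 900 CPM. Replicate 1 thus had the lowest value of TIMP1 and the highest values of MMP2 and MMP14. Proteases and inhibitors did not separate in this way, however. The inhibitor TIMP3 was also highest there, at 318, 159, and 251 CPM, and the protease MMP11 was lowest there, at 22.7, 43.6, and 37.3 CPM. Of the 6 members with a mean of 10 CPM or more, 3 were highest and 3 lowest in replicate 1. Over all 7652 genes with that mean, the numbers were 3410 and 2790. The inflammatory gelatinase MMP9 had 0, 0.0526, and 0 CPM and the collagenase MMP13 had 0 counts. MMP1 and TIMP2 were not found by symbol, and the identifier with the symbol MMP3, which is among the 11, is MMP1 in the table of gene names and cannot be assigned. In this class, 2 of the 6 members with a mean of 10 CPM or more differed at least 2-fold between their highest and lowest library, TIMP1 and TIMP3. The background for such counts is 710 of the 7652 genes with that mean, or 9.28%.

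The 40 contractile and cytoskeletal genes on the lists held 8.96%, 9.88%, and 10.8% of all counts. All 15 myofibroblast and smooth muscle genes passed 100 CPM in every library, and they summed to 32213, 37840, and 45544 CPM. Of these 15, 11 were lowest in replicate 1, against 2790 of the 7652 genes overall. TPM2, a tropomyosin, had 1608, 3518, and 3301 CPM, and CNN1, the actin-binding protein calponin, had 688, 1504, and 1544 CPM. ACTG2, the enteric smooth muscle actin, had 342, 766, and 754 CPM, and DES, the muscle intermediate filament desmin, had 265, 659, and 637 CPM. These 4 genes and LMOD1 were the 5 of 15 that differed 2-fold or more between libraries (against 9.28% of all genes). In each of the 5, replicates 2 and 3 lay close together and replicate 1 lay below.

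Other genes of the same list were more even. MYH11, the smooth muscle myosin heavy chain, had 324, 546, and 518 CPM. TNS1, a tensin of focal adhesions, and CALD1, the actin-binding protein caldesmon, had 1568, 1504, and 1533 CPM and 1480, 1273, and 1265 CPM, without the low value in replicate 1. MYLK, the myosin light chain kinase that starts contraction, had 259, 304, and 284 CPM. In the general actin list, all 16 measured members passed 100 CPM and their sum was 57032, 60694, and 61663 CPM. Of these, MYL6, a myosin light chain, was the only 1 to differ 2-fold, at 877, 1667, and 1869 CPM. Over all genes with a mean of 10 CPM or more, 9.28% differed 2-fold or more.

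The sarcomere genes that could be measured were almost absent. Of 9 striated muscle genes in the table, only ACTA1, the skeletal actin, reached 1 CPM in all libraries, at 304, 246, and 407 CPM. MYH6, MYL7, TTN, and NPPA were not found by symbol, so nothing is known of them here. The identifier with the symbol MYH7, which is among the 9, is MYH6 in the table of gene names and cannot be assigned. The actins have nearly the same coding sequence, and how the authors' counting divided reads among them was not analysed here. The troponins TNNT2 and TNNC1 had 0 counts, TNNI3 had 0.131, 0.105, and 0.153 CPM, and MYL2 had 0.0437, 0, and 0 CPM. The measured contractile counts of these cells thus came from smooth muscle and nonmuscle isoforms, with the reservations on the actins and on the genes not found.

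The 106 receptor genes on the lists held 1.17%, 1.02%, and 1.01% of the counts. Among growth factor receptors, PDGFRB was at 676, 472, and 505 CPM and PDGFRA at 180, 156, and 136 CPM. AXL, a TAM receptor kinase, was at 461, 593, and 571 CPM, IGF2R, the mannose 6-phosphate receptor, at 375, 192, and 189 CPM, and FGFR1 at 196, 221, and 203 CPM. NGFR, the neurotrophin receptor p75, had 100 counts in replicate 3 and 0 in replicates 1 and 2, so a single library carried all of it. Of the 16 genes, 13 reached 1 CPM in all libraries. None of the 12 with a mean of 10 CPM or more differed 2-fold, against 9.28% of all genes with that mean.

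Receptors of the TGF-β and bone morphogenetic protein families, which drive matrix production and osteogenic signals, numbered 11, and 10 reached 1 CPM. The coreceptor ENG was at 271, 190, and 226 CPM, TGFBR2 at 117, 238, and 168 CPM, and ACVR1 at 107, 73.2, and 65.9 CPM. TGFBR1, the signaling partner of TGFBR2, had 31.6, 19.4, and 18.4 CPM. These partners did not share an order over the libraries, since TGFBR2 was highest in replicate 2 and TGFBR1 in replicate 1. Of the 9 listed receptors with a mean of 10 CPM or more, however, 8 were highest in replicate 1. Over all genes with that mean, 3410 of 7652 were highest there. The secreted ligands were also present, with TGFB3 at 369, 246, and 371 CPM, TGFB2 at 137, 98.0, and 97.6 CPM, and TGFB1 at 89.5, 47.6, and 65.9 CPM.

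Integrins and other matrix receptors summed to 5891, 4968, and 5060 CPM, and 14 of 16 reached 1 CPM. ITGB1, the common β chain, had 1629, 1046, and 1023 CPM. ITGA8, an α chain of receptors for RGD-containing ligands such as fibronectin, had 1393, 960, and 1241 CPM, and ITGA5, the α chain of the main fibronectin receptor, had 788, 1541, and 1135 CPM. ITGA11, a collagen-binding α chain of fibroblasts, had 458, 223, and 474 CPM. The α chains ITGA5, ITGA8, and ITGA11 did not share an order, since ITGA5 was highest where ITGA8 and ITGA11 were lowest, in replicate 2. Of the 13 list members with a mean of 10 CPM or more, however, 10 were highest in replicate 1. Over all genes with that mean, 3410 of 7652 were highest there. The collagen-binding chain ITGA2 was at 1.01, 0.631, and 0.408 CPM and the leukocyte chain ITGA4 at 1.92, 1.21, and 0.460 CPM.

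G protein-coupled and vasoactive receptors numbered 22 in the table, with 14 at 1 CPM or more and none at 100 CPM in all libraries. NPR2, the receptor of C-type natriuretic peptide, was at 77.3, 95.7, and 79.7 CPM. The sphingosine 1-phosphate receptors S1PR2, S1PR3, and S1PR1 had 33.4, 53.8, and 48.1 CPM, 34.2, 22.5, and 33.7 CPM, and 20.4, 21.6, and 25.2 CPM. EDNRA, the endothelin A receptor, was at 15, 17.2, and 15.1 CPM and AGTR1, the angiotensin II type 1 receptor, at 12.5, 12.7, and 10.7 CPM, whereas EDNRB and AGTR2 had 0 counts. In both the endothelin and the angiotensin system, then, 1 receptor subtype was detected in every library and the other in none.

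LPC, the lipid given to the treated cells, can be converted to lysophosphatidic acid by autotaxin (ENPP2). ENPP2 was at 2.45, 1.16, and 1.68 CPM in the untreated cells. Among receptors of lysophosphatidic acid, LPAR1 was at 25.5, 12.8, and 11.9 CPM, LPAR2, LPAR3, and LPAR5 were under 1 CPM in all libraries, LPAR4 had 0 counts, and LPAR6 was not found by symbol. The lipid phosphatases PLPP1 and PLPP3, which inactivate lysophosphatidic acid, had 86.0, 81.9, and 80.5 CPM and 108, 42.8, and 66.5 CPM. LPCAT1, which turns LPC back into phosphatidylcholine, had 42.8, 29.3, and 35.9 CPM. LPAR1 was thus the only measured receptor gene of lysophosphatidic acid at 1 CPM or more, and it was highest in replicate 1, as was PLPP3.

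Of 16 cytokine, innate, and lipoprotein receptors in the table, 14 reached 1 CPM. TNFRSF1A, a receptor of tumor necrosis factor, was at 89.1, 142, and 119 CPM and the interleukin-1 receptor IL1R1 at 54.6, 55.2, and 44.2 CPM. IL6ST, the shared signaling chain of the interleukin-6 family, was at 67.8, 35, and 30.5 CPM, and IL6R at 1.75, 7.46, and 4.34 CPM. The scavenger receptor CD36 had 0 counts, and OLR1, a receptor of oxidized low-density lipoprotein, had 1.14, 0.526, and 0.511 CPM. Of the Notch and Wnt receptors, 12 of 13 reached 1 CPM. NOTCH2 was at 700, 476, and 468 CPM, and NOTCH1, mutations of which cause aortic valve disease, was at 24.1, 31.0, and 18.1 CPM. The Wnt coreceptor LRP5 was at 190, 127, and 160 CPM and the receptor FZD7 at 128, 106, and 123 CPM.

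Calcium genes held 0.322%, 0.320%, and 0.287% of the counts. Of the ryanodine receptors, the calcium release channels of the sarcoplasmic and endoplasmic reticulum that dantrolene targets, RYR3 was at 29.5, 24.2, and 18.6 CPM. RYR2, the cardiac form, had 1.27, 0, and 0.408 CPM, and RYR1 was not found by symbol. The inositol trisphosphate receptors ITPR1, ITPR3, and ITPR2 had 80.7, 75.5, and 56.8 CPM, 41.7, 33.7, and 26.8 CPM, and 5.82, 3.89, and 2.09 CPM. Each of these 5 release channels was highest in replicate 1, and all but RYR2 were lowest in replicate 3. RYR2 and ITPR2 were under 10 CPM in all libraries. On the list of release and store genes, 11 had a mean of 10 CPM or more. Among these, 7 were highest in replicate 1 and 5 lowest in replicate 3. Over all 7652 genes with that mean, 3410 were highest in replicate 1 and 2717 lowest in replicate 3. ATP2A2, the pump that refills the store, had 223, 235, and 182 CPM, and CALR, the store buffer calreticulin, had 551, 740, and 651 CPM. STIM1 and ORAI1, the sensor and channel of store-operated entry, had 45.8, 34.1, and 41.1 CPM and 25.0, 15.3, and 16.8 CPM.

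At the plasma membrane, the calcium pump ATP2B4 was at 458, 419, and 341 CPM and the stretch-activated channel PIEZO1 at 215, 205, and 165 CPM. CACNA1H, a T-type channel, had 156, 48.2, and 59.2 CPM, and CACNA1C, the L-type channel of smooth and heart muscle, had 24.8, 36.5, and 30.1 CPM. CACNA1H was the only 1 of 7 genes of this list with a mean of 10 CPM or more that differed 2-fold, with replicate 1 above the other libraries. Over all genes with that mean, 9.28% differed 2-fold or more. The sodium-calcium exchanger SLC8A1 was at 0, 0, and 0.0511 CPM.

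The transcription factor lists took a small share, 0.449%, 0.397%, and 0.443% of the counts for 87 genes, osteochondrogenic genes included. The osteochondrogenic list, which also holds genes that are not factors, contributed 1246, 716, and 1682 CPM to it. Most of that came from the matrix protein gene MGP, so the share and its order over the libraries are not those of the factors alone. Of 24 mesenchymal and valve developmental factors in the table, 20 reached 1 CPM in all libraries. PRRX1 was at 227, 214, and 144 CPM. GATA6 and GATA4, zinc finger factors of heart and valve development, had 195, 101, and 143 CPM and 168, 119, and 135 CPM. KLF4, a Krüppel-like factor, had 119, 68.3, and 71.9 CPM. HAND2 and TBX18, factors of the heart field and of epicardium, had 46.3, 53.9, and 60.4 CPM and 49.6, 24.6, and 30.02 CPM, while HAND1 had 0 counts. NFATC1, needed for valve formation in the endocardium, had 29.7, 21, and 26.9 CPM. The cardiac factors GATA4, GATA5, GATA6, HAND2, and TBX20 were detected in every isolation, and NKX2-5, chosen for its role in heart muscle after its values were seen, had 0 counts.

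**Figure D4:**
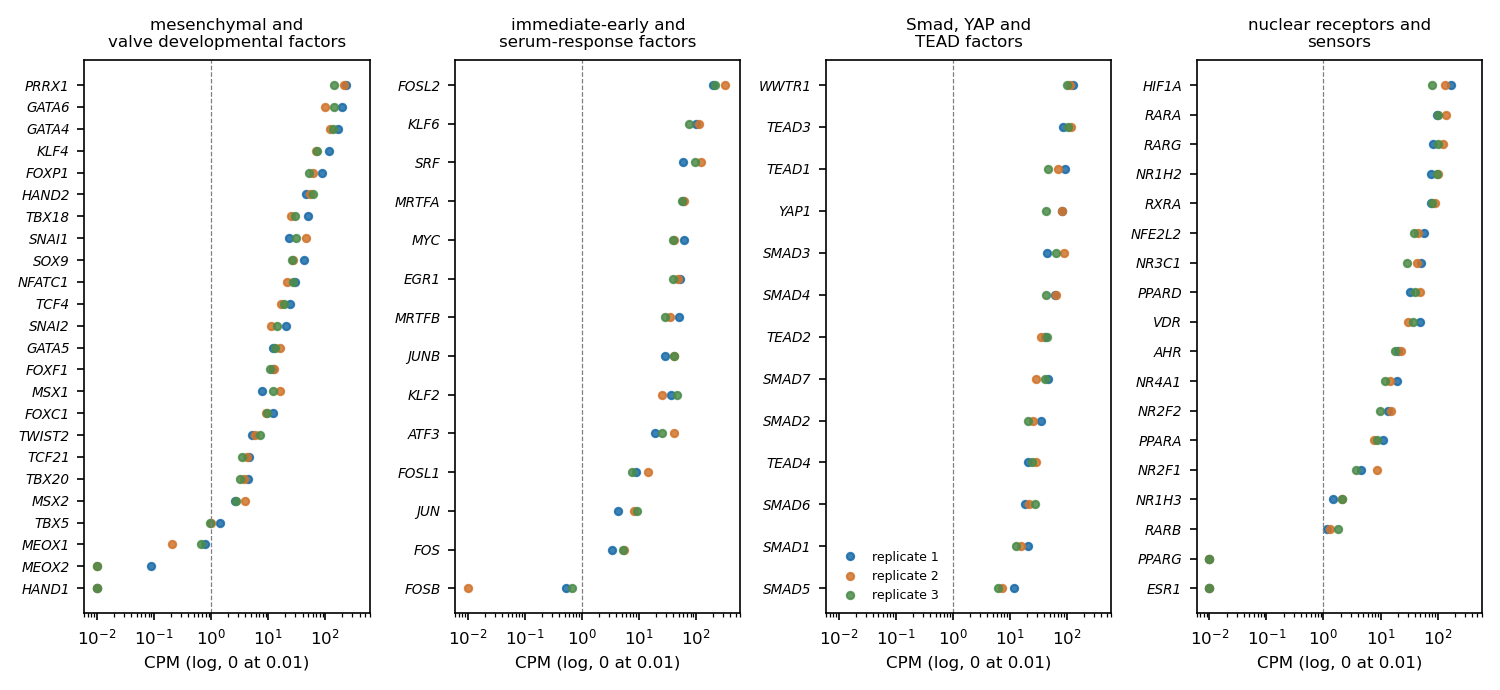
CPM (x axis, log scale, with 0 drawn at 0.01) of the members of 4 transcription factor lists, 1 point per vehicle library, with a dashed line at 1 CPM. Within a list, genes are placed in order of mean CPM, which is not corrected for transcript length. HAND1, PPARG, and ESR1 lie at 0 in all libraries.

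Families of factors with positional or lineage roles were set after the values were seen, and are read against 23.5% of the 17349 genes with a symbol that had 0 counts. Of 37 HOX genes in the table, which specify position along the body axis, 18 had 0 counts and only HOXB2 (4.81, 5.62, and 5.87 CPM) and HOXB3 (3.46, 2.94, and 3.42 CPM) reached 1 CPM in all libraries. The 9 genes of the HOXA cluster summed to 0.0437, 0.631, and 0.357 CPM. Of 14 NKX genes, 9 had 0 counts and only NKX2-2 reached 1 CPM, at 2.27, 2.94, and 1.94 CPM. Of the forkhead factors 10 of 43 had 0 counts, of the T-box factors 5 of 16, and of the SOX factors 3 of 13. In all libraries, 13 of 17 Krüppel-like factors and 5 of 6 GATA factors reached 1 CPM, against 10026 of the 17349 genes with a symbol. KLF13 was at 209, 374, and 298 CPM, and the forkhead factors FOXK1 and FOXS1 had 137, 188, and 149 CPM and 163, 102, and 184 CPM.

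Factors that answer to serum, mechanical load, and TGF-β were detected throughout. Of 14 immediate-early and serum-response factors, 13 reached 1 CPM, and FOSL2, a subunit of AP-1, had 199, 328, and 217 CPM. FOS and JUN, the AP-1 subunits that serum induces within minutes to hours, had 3.41, 5.57, and 5.31 CPM and 4.37, 8.04, and 9.19 CPM. SRF, which binds the promoters of actin and contractile genes, had 58.3, 123, and 96.0 CPM, and its coactivator MRTFA had 59.1, 61.5, and 57.6 CPM. SRF was lowest in replicate 1, the library in which CNN1, DES, ACTG2, TPM2, and LMOD1 were lowest, and MRTFA was even. A link between SRF and these genes was not tested. Immediate-early and serum-response factors with a mean of 10 CPM or more numbered 11, of which 4 were lowest in replicate 1. Over all genes with that mean, 2790 of 7652 were lowest there. All 13 Smad, YAP, and TEAD factors reached 1 CPM. The coactivators WWTR1 (TAZ) and YAP1 had 129, 116, and 100 CPM and 81.1, 83.9, and 42.8 CPM. Their partner TEAD3 had 85.7, 117, and 104 CPM, and SMAD3, the TGF-β effector, had 45.4, 87.5, and 64.3 CPM.

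Among 18 nuclear receptors and sensors, 16 reached 1 CPM. HIF1A, the oxygen-regulated factor, was at 171, 136, and 78.9 CPM, and the retinoic acid receptors RARA and RARG at 97.8, 139, and 101 CPM and 84.3, 123, and 101 CPM. AHR, the aryl hydrocarbon receptor, was at 20.1, 23.0, and 18.1 CPM. PPARD and PPARA were at 33.2, 48.5, and 39.7 CPM and 11, 7.73, and 8.78 CPM, whereas PPARG, the factor of fat cells, and the estrogen receptor ESR1 had 0 counts.

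Regulators of cartilage and bone were detected in all isolations, whereas SP7 and ALPL had all or nearly all of their few counts in replicate 1 and IBSP had 0. MGP, the matrix protein that inhibits calcification, was at 902, 456, and 1392 CPM, a 3.05-fold range, and it made up most of the list's sum of 1246, 716, and 1682 CPM. BMP4 was at 80.0, 59.9, and 104 CPM. ENPP1 and ANKH, which raise extracellular pyrophosphate, an inhibitor of mineral, had 49.0, 22.2, and 29.6 CPM and 69.7, 31.3, and 53.8 CPM. MGP, BMP4, ENPP1, and ANKH were all lowest in replicate 2. RUNX2, the main osteoblast factor, had 30.5, 42.5, and 20.6 CPM, and was highest in that replicate, while SOX9, the cartilage factor, had 41.7, 27.5, and 25.7 CPM. SP7, the factor downstream of RUNX2 in bone, had 15 counts in replicate 1 and 0 in the others. The alkaline phosphatase gene ALPL had 26, 0, and 1 counts, and IBSP, bone sialoprotein, had 0. SPP1, osteopontin, was at 32.0, 28.5, and 19.6 CPM, and BGLAP, osteocalcin, at 1.49, 1.10, and 0.613 CPM. Of the 8 list members with a mean of 10 CPM or more, 4 differed 2-fold or more (MGP, ANKH, ENPP1, and RUNX2), against 9.28% of all genes.

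Cell cycle genes were detected. Of 14 proliferation genes in the table, 13 reached 1 CPM, and the list summed to 102, 145, and 119 CPM. PCNA, the clamp of DNA replication, was at 22.9, 23.1, and 19.1 CPM, and the mitotic genes PLK1, CCNB1, and TOP2A at 7.61, 10.8, and 9.45 CPM, 6.56, 9.93, and 6.33 CPM, and 3.46, 2.00, and 1.28 CPM. MKI67 was not found by symbol. Of 16 cytokine and chemokine genes in the table, TGF-β ligands included, 10 reached 1 CPM in all libraries, and the list summed to 826, 805, and 850 CPM. CCL2, a monocyte chemokine, was at 91.8, 154, and 133 CPM and CSF1 at 113, 205, and 160 CPM, whereas IL6 was at 9.14, 13.6, and 7.30 CPM, CXCL8 was under 1 CPM in all libraries, and TNF and CSF2 had 0 counts. IL11, a cytokine tied to fibrosis, had 3.67, 19.8, and 4.34 CPM, with most of its counts in replicate 2.

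Secreted regulators included IGFBP7 at 1574, 1001, and 1651 CPM, a binding protein of insulin-like growth factors, and the Wnt antagonists DKK3 (893, 682, and 961 CPM), SFRP1 (557, 579, and 681 CPM), and SFRP2 (184, 400, and 325 CPM), while the antagonist DKK1 had 0 counts. VEGFA, the angiogenic factor, had 309, 163, and 139 CPM, and was highest in replicate 1, as HIF1A was. So were 3410 of the 7652 genes with a mean of 10 CPM or more, and a link between VEGFA and HIF1A was not tested. Of 17 stress and antioxidant genes, 16 reached 1 CPM. HSPA5, the endoplasmic reticulum chaperone BiP, had 1008, 642, and 617 CPM, ATF4 had 418, 776, and 624 CPM, and HMOX1, heme oxygenase 1, had 202, 481, and 303 CPM. SOD3, the extracellular superoxide dismutase, was even, at 388, 394, and 429 CPM. Glycolytic enzymes summed to 10212, 10644, and 9853 CPM, including PKM (3551, 3213, and 3163 CPM) and ENO1 (2821, 2989, and 3058 CPM). GAPDH was listed at only 22.6, 26.2, and 21.9 CPM and ALDOA at 0, 0, and 0.0511 CPM. Both are enzymes of every cell, so a low value under a symbol in this table need not mean a low transcript, and where their reads were counted was not tested.

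The genes with 0 counts included most olfactory receptors and all bitter taste receptors of the table, counted by symbol after the values were seen. Of the 17349 genes with a symbol, 4078 (23.5%) had 0 counts in all 3 libraries. Of 114 olfactory receptor genes 110 had 0 counts and none reached 1 CPM in all libraries, and all 10 bitter taste receptors had 0 counts. Of 38 keratins, 30 had 0 counts, and KRT80 was at 10.2, 12, and 14.2 CPM. Of 18 GABA-A receptor subunits 12 had 0 counts. All 24 ADAMTS proteases and ADAMTS-like genes had counts. In all libraries, 15 of them reached 1 CPM, against 10026 of the 17349 genes with a symbol. ADAMTS2, which trims fibrillar procollagen, had 208, 229, and 228 CPM.

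The spread between the vehicle libraries was measured on the 7652 genes with a mean of 10 CPM or more. The median SD of log2 CPM was 0.29, and the median ratio of highest to lowest library was 1.48. The ratio was under 1.2 for 1101 genes, 2 or more for 710, and 4 or more for 6. Replicates 2 and 3 were the nearest pair, with 76 genes differing 2-fold or more, against 287 between replicates 1 and 3 and 467 between replicates 1 and 2. Across these genes, which are not independent, Pearson's r of log2 CPM was 0.974, 0.953, and 0.940 for the same pairs. Without replicate 1, 71 genes differed 2-fold or more instead of 710. Without replicate 2 the number was 293, and without replicate 3 it was 474. A ratio over 2 libraries is at most that over all 3, so a lower number is in part built in. The common biological coefficient of variation from edgeR was 23.1%, and 18.0%, 24.1%, and 26.3% without replicate 1, 2, and 3. For each gene of the 7652, the deviation of a vehicle library from the vehicle mean was set against that of the mean of the other 3 groups of the same isolation, and Pearson's r over genes and isolations was -0.214. An adjustment that centers each isolation pushes this value below 0 by construction, so a difference between vehicle replicates is one between these libraries and cannot be read as a property of the isolation.

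**Figure D5:**
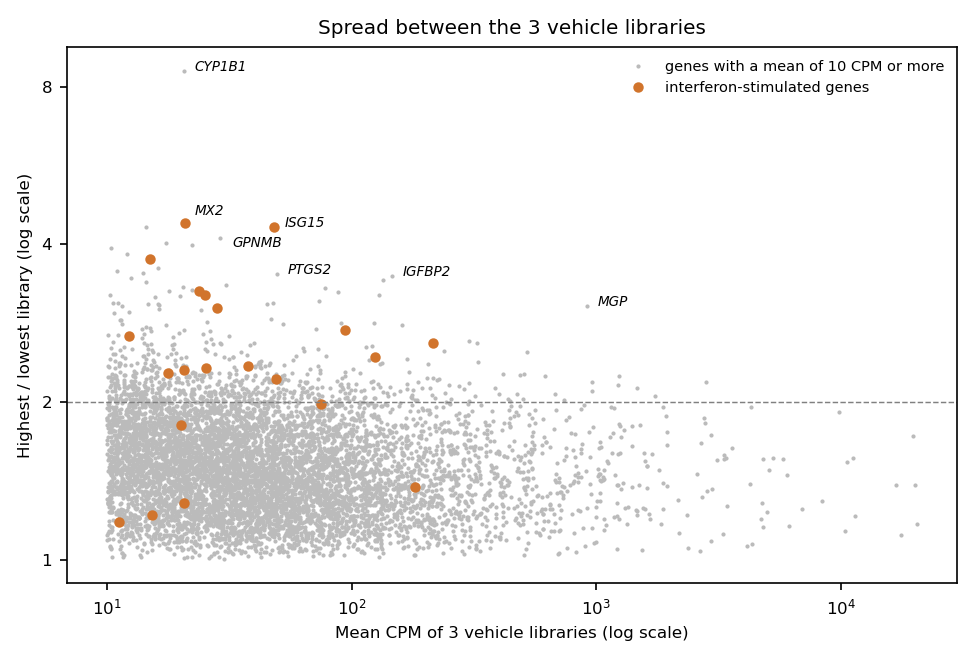
Ratio of the highest to the lowest vehicle library (y axis, log scale) against mean CPM (x axis, log scale) for the 7652 genes with a mean of 10 CPM or more, with a dashed line at a ratio of 2 and interferon-stimulated genes in orange. Most genes lie under the line, and 15 of the 21 orange points lie above it.

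CYP1B1, a cytochrome P450 enzyme induced through the aryl hydrocarbon receptor, had the largest ratio, 8.55, at 20.7, 36.7, and 4.29 CPM. Its replicate 3 was far below the others. AHR itself varied 1.27-fold. The next in order were MX2 (7.74, 34.0, and 20.5 CPM), SPARCL1 (24.7, 5.73, and 13 CPM), and ISG15 (16.2, 58.8, and 70.0 CPM), which are an antiviral GTPase, a matricellular protein, and a ubiquitin-like protein induced by interferon. GPNMB, a transmembrane glycoprotein, had 57.7, 14.0, and 14.8 CPM, and POSTN, the matricellular periostin of valves and fibroblasts, had 32.2, 7.99, and 12 CPM. These 6 genes were the ones with a ratio of 4 or more. Replicate 1 held the highest value of SPARCL1, GPNMB, and POSTN and the lowest of MX2 and ISG15.

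The other 9 of the 15 largest ratios were those of ABLIM1, SLPI, NAV2, RSAD2, NDUFA4L2, PDPN, PTGS2, IGFBP2, and PAPPA. PTGS2, the inducible cyclooxygenase, had 45.6, 80.6, and 23.0 CPM, and IGFBP2 had 63.3, 220, and 155 CPM. SLPI, a secreted protease inhibitor, had 13.2, 3.63, and 14.2 CPM. NDUFA4L2, a mitochondrial protein induced by hypoxia, had 25.9, 7.20, and 15.2 CPM, and PDPN, the surface mucin podoplanin, had 22.2, 6.31, and 13.5 CPM. Both were highest in replicate 1 and lowest in replicate 2. At the other end, the 10 named genes with the smallest SD of log2 CPM were ZNF316, COMMD3, EFEMP1, TMEM183A, PRPF4, STN1, PWP1, B4GALT2, TMEM138, and NSUN5. B4GALT2, a galactosyltransferase, had 130, 129, and 129 CPM, and ZNF316 had 30.01, 29.90, and 29.97 CPM.

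Because MX2, ISG15, and RSAD2 were all among the 15, other interferon-stimulated genes were then counted. Of 32 such genes in the table, 30 reached 1 CPM in all libraries, and the 32 summed to 691, 1461, and 1212 CPM. Of the 21 with a mean of 10 CPM or more, 15 differed 2-fold or more (against 9.28% of all genes), and 18 were lowest in replicate 1 (against 2790 of 7652). MX1 had 112, 292, and 245 CPM, IFI6 had 64.9, 150, and 158 CPM, and OAS2 had 50.4, 138, and 92.3 CPM. STAT2, a transcription factor of the interferon response, had 18.9, 18.8, and 24.1 CPM, without the low value in replicate 1. The family was chosen because of members already seen to vary, so its count describes these libraries and is no test.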

How the data were processed

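Poly(A)-selected RNA of 12 cultures was sequenced, and the 3 vehicle libraries were analysed. The authors aligned and counted the reads per pig gene, adjusted the counts for the isolation with ComBat, and deposited whole-number counts not scaled for library size. The study's methods name STAR as the aligner, whereas the submitters' processing notes name HISAT2 2.0.5, DESeq2 1.32.0, R 4.1.1, and the build Sscrofa11.1. Strand handling in counting is not given in the sources used here, so sense and antisense genes that overlap cannot be told apart. The deposited tables of treatment comparisons (mean signal, log2 fold change, standard error, Wald score, p-values) were not used.

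Counts were divided by library totals in Python 3.11.15 with pandas 2.3.3. Scaling factors and the dispersion came from edgeR 4.0.16 and DESeq2 1.42.0 in R 4.3.3, and the dispersion step was tested on simulated data. A single group allows no comparison of conditions and no p-value. Of 31908 genes, 16498 had a symbol in the count table, 851 were given one from a gene name table, and 14559 had none, which held 7.28%, 7.25%, and 7.65% of the counts. Coordinates are those of RefSeq for the same build, matched by symbol. The 9 columns of treated samples served the comparison of deviations by isolation and the count of genes at 0 in all libraries only.

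The lists (41, with 556 genes, 518 of them in the table and 38 not found by symbol) and all thresholds were chosen with earlier results of these data known. Genes named were the 20 with the highest mean CPM, list members from the highest mean down and those at 0, the 15 largest and 10 smallest spreads among named genes of 10 CPM or more. Members named out of that order, and the families, were chosen after their values were seen. Alternatives were TMM and DESeq2 size factors, each library left out, at least 10 counts or 1 CPM in at least 1 library, no mitochondrial genes, a mean of 1 CPM, and a prior count of 2. Sequences were not analysed here. Some list members are not reported here.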

Additional observations from a re-analysis of the deposited data

How the results depend on the processing

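Of 504 alternative values computed for 91 quantities, 493 stayed within the replicate SD or within 1.5 times the count, and 11 moved. The number of genes differing 2-fold or more (710) ranged from 71 to 474 with a replicate left out, lowest without replicate 1, and was 2099 among the 11584 genes with a mean of 1 CPM or more. The median SD of log2 CPM ranged from 0.19 to 0.29 with a replicate left out. List members at 1 CPM or more in all libraries ranged, with a replicate left out, from 1 to 3 for striated muscle genes, 0 to 1 for cardiomyocyte markers, and 0 to 1 for adipocyte markers. With a threshold of at least 10 counts they were 3, 1, and 2. No paired analysis was possible because a single group is described and no test was run. Counts per kilobase were not run, since exon lengths were not analysed here. By counting error alone, a count of 0 allows up to 0.0488 CPM.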
